A study of Mus musculus with 2 samples.

Results

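Genomic imprinting leaves a gene active on the copy inherited from one parent and silent on the other, and imprinted genes lie in clusters that a shared control region, methylated on 1 parental copy, keeps in check. The set described here is 46 imprinted mouse genes, listed by name, all of which were found in the mm10 gene table. Their values in these libraries did not define the list, but earlier results of these data were known when it was chosen. Genes that fell in the same 50 kb bins were taken as 1 locus, which gave 44 loci, because Igf2 and Ins2 share a bin and so do Blcap and Nnat. Loci within 1 Mb of each other were joined into 19 domains, which cover 136 of the 54521 bins of the genome. Alleles cannot be told apart in these data, so each value is a sum over the maternal and the paternal copy.

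The libraries are Foxa2 HiChIP of liver from wildtype mice given GW4064, an agonist of the bile acid receptor FXR, or vehicle, which was propylene glycol with Tween 80, as a single dose by gavage and taken 4 h later. HiChIP ligates DNA ends that lie near each other in the nucleus and then precipitates the ligated chromatin, here with an antiserum against Foxa2, a forkhead pioneer factor of liver. There was 1 library per treatment, with 29003442 contacts in the GW4064 library and 22686004 in the vehicle library, so each difference compares those libraries and not the conditions. No p-value is given, and every interval is a 95% interval that covers counting error only. Whether a library holds 1 liver or several is not stated in the sources used here.

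Many imprinted clusters hold a long noncoding RNA whose promoter lies in the control region and whose transcription silences neighbouring genes on the same copy. Kcnq1ot1 silences Cdkn1c and Phlda2, Airn silences Igf2r, Slc22a2 and Slc22a3, and Snhg14 silences Ube3a in neurons. At Igf2 and H19 the factor CTCF instead binds the control region on the maternal copy and keeps shared enhancers from Igf2. In liver, Igf2 and H19 are known as fetal genes that are shut down after birth, and Igf2r, a receptor that clears Igf2, remains active.

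The promoter windows below are shown because contacts near Kcnq1ot1 and between Snrpn and Mkrn3 are described further on, with Dlk1 added for its forkhead motifs. They come from RefSeq on GRCm38.p6 (the assembly also called mm10), run from 250 bases before to 50 bases after a start site, and are printed 5′ to 3′. Capitals mark the forkhead motifs TGTTTAC and TGTTTGC and TGCCGC, the motif bound by the imprint-keeping factor ZFP57, each on either strand. A window is far smaller than a 50 kb bin, so no contact can be assigned to it.
Kcnq1ot1, chr7:143296498-143296797, minus strand: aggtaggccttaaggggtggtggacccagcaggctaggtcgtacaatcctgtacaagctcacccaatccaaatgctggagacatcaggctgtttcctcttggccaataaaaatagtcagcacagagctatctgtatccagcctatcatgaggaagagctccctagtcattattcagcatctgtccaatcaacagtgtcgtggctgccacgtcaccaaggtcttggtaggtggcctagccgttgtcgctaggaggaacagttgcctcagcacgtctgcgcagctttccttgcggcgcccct
Snrpn, downstream start, chr7:60005150-60005449, minus strand: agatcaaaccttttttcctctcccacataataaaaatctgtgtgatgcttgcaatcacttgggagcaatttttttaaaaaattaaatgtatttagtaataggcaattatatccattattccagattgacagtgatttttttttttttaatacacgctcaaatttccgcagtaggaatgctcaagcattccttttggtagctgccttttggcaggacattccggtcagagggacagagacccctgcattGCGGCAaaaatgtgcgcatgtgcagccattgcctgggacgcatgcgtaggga
Snrpn, upstream start, chr7:60047929-60048228, minus strand: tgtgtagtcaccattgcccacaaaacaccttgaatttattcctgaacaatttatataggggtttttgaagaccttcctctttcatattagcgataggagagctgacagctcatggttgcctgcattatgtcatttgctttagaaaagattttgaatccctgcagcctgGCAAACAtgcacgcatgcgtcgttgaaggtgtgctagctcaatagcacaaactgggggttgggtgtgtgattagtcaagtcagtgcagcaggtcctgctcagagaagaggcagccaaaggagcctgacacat
Snrpn, upstream start, chr7:60140176-60140475, minus strand: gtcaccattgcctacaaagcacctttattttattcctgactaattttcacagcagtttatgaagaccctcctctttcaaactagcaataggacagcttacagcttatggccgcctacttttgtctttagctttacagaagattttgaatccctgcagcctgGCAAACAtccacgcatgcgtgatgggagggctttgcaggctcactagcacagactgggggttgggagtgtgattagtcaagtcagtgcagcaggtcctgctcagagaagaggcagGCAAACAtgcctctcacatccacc
Snrpn, upstream start, chr7:60450128-60450427, minus strand: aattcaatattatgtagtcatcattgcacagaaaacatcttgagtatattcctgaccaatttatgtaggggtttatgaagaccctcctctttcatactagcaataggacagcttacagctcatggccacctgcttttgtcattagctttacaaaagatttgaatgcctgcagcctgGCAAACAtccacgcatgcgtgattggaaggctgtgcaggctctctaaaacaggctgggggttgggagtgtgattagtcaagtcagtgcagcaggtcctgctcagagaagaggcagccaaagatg
Mkrn3, chr7:62420104-62420403, minus strand: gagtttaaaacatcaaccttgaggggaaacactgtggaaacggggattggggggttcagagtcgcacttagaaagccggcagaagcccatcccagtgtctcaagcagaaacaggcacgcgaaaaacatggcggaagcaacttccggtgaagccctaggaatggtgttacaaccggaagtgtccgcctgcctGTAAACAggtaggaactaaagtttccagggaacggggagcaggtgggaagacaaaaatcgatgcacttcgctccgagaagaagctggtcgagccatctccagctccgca
Dlk1, chr12:109452573-109452872, plus strand: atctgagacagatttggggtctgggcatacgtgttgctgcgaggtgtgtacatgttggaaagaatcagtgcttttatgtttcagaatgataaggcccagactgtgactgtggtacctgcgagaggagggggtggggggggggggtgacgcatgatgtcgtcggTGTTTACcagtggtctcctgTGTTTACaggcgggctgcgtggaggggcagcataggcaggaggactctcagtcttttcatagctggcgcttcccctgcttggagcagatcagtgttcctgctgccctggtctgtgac

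The 3 upstream Snrpn windows hold a common run of 49 bases, and each carries GCAAACA, which is TGTTTGC on the other strand. The window of the remaining Snrpn start shares no run longer than 10 bases with any of them. Windows were found for 37 of the 46 genes, 53 windows in all. TGTTTAC was present in 3 of the 53 windows (Dlk1, Mkrn3 and Nap1l5), against 3.65% of all 32851 windows of the same length, and TGTTTGC in 5 of 53 (Commd1, Grb10 and Snrpn), against 5.07%. TGCCGC occurred in 13 of 53 windows of 12 genes, or 24.5%, against 11.6% of all windows. The member windows are also richer in CG, with a median of 15 CG dinucleotides against 7 in all windows, and TGCCGC holds a CG. Motifs are letter matches and do not show binding.

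Local contacts of the imprinted loci were not set apart from those of other genes between the treatments. Local contacts are contacts of a locus with other bins up to 1 Mb away, and ratios were scaled to equal totals of local contacts, 6808739 in the GW4064 library and 4783866 in the vehicle library. The median log2 ratio of GW4064 to vehicle was -0.12 over the 44 imprinted loci and -0.12 over 26534 other gene loci. A locus was called changed when its log2 ratio was at least 0.32 from 0 and its interval excluded 0. All 44 loci passed the minimum of 50 local contacts. Of the 44 loci, 6 fell and 0 rose, while 24.4% of all 26578 gene loci fell and 1.82% rose. Scaling to the totals of all contacts moves every log2 ratio up by 0.15, and the median of all gene loci is then 0.04. On that scale 1 of the 44 imprinted loci fell, H13, against 12.5% of all gene loci, and 3 rose, Mkrn3, Snrpn and Ube3a, against 9.99% of all gene loci.

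**Figure D1:**
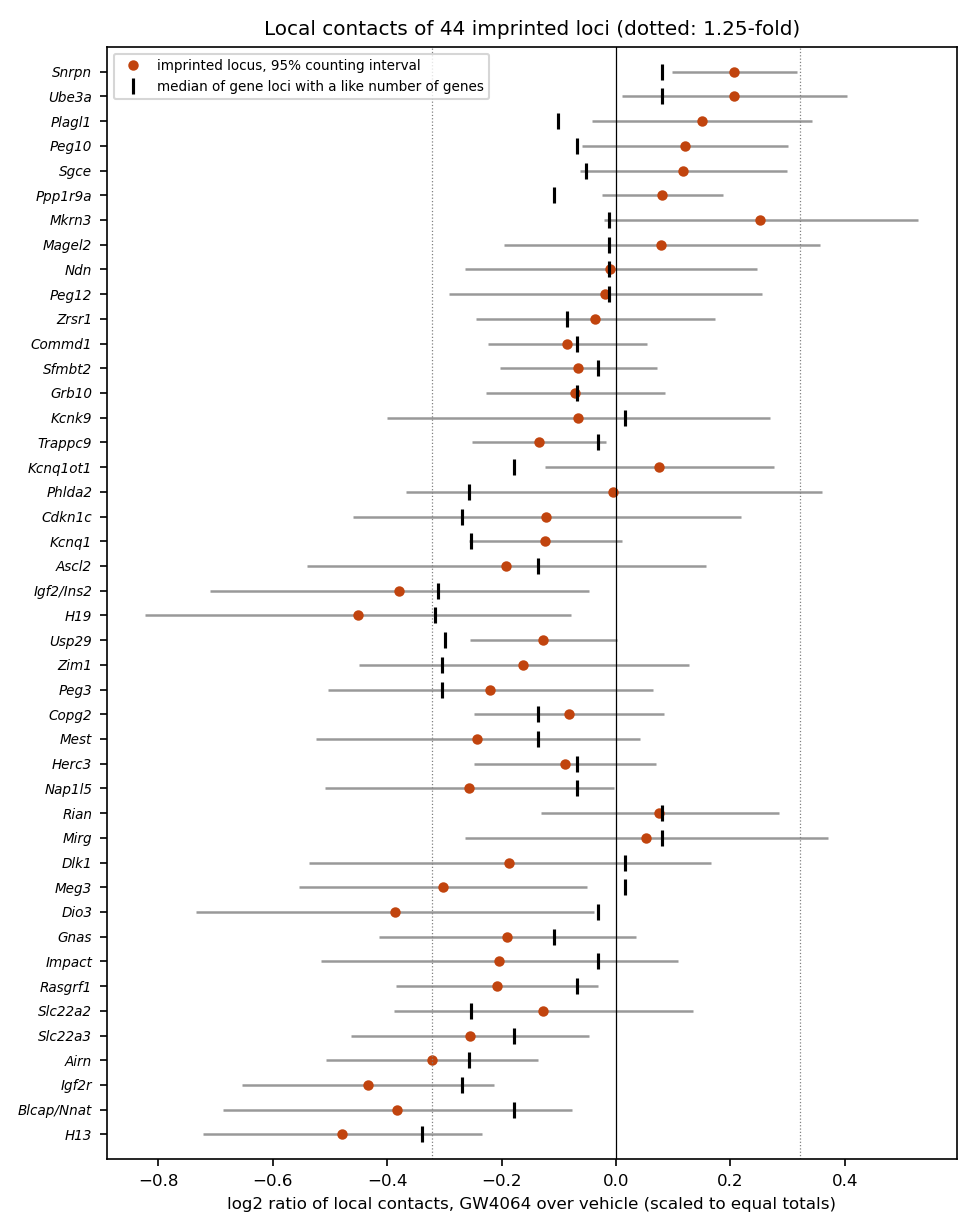
Log2 ratio of local contacts, GW4064 over vehicle, for each of 44 imprinted loci (points) with exact binomial 95% intervals (lines), in order of the median of their domain, on the scale of equal totals of local contacts, with dotted lines at the limit of 0.32 on either side. Short upright marks give the median of gene loci with a like number of protein-coding genes around them, and the points run from -0.48 at H13 to 0.25 at Mkrn3.

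The 6 loci that fell encode a peptidase, a growth factor receptor, a fetal RNA, hormone genes and a thyroid hormone enzyme. H13, a signal peptide peptidase whose introns hold the imprinted gene Mcts2, had 283 local contacts in the GW4064 library and 277 in the vehicle library, a log2 ratio of -0.48 (-0.72 to -0.23). H19, a fetal noncoding RNA, had 126 and 121, a log2 ratio of -0.45 (-0.82 to -0.08). Igf2r had 351 in the GW4064 library and 333 in the vehicle library, a log2 ratio of -0.43 (-0.65 to -0.21). All of these counts were higher in the deeper GW4064 library before scaling, and lower after it. Dio3, which inactivates thyroid hormone, had 147 contacts with GW4064 and 135 with vehicle (log2 ratio -0.39, -0.73 to -0.04). The bin of Igf2 and Ins2, an insulin gene, held 162 and 148 (-0.38, -0.71 to -0.05), and that of Blcap and Nnat, a neuronal proteolipid, 190 and 174 (-0.38, -0.69 to -0.08). Airn was nearest to the limit of the loci not called, its log2 ratio rounding to it, with 517 contacts in the GW4064 library and 454 in the vehicle library and a log2 ratio of -0.32 (-0.51 to -0.14).

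Loci at the upper end came from the Angelman and Prader-Willi region. Mkrn3, a gene for a RING finger protein, had 300 local contacts with GW4064 and 177 with vehicle, a log2 ratio of 0.25 (-0.02 to 0.53). Ube3a, the ubiquitin ligase lost in Angelman syndrome, had 568 and 346 (0.21, 0.01 to 0.40), and Snrpn, a gene for a spliceosomal protein, 1830 and 1114 (0.21, 0.10 to 0.32). Of all 44 loci, only Ube3a and Snrpn had intervals above 0, and neither met the limit of 0.32 on the scale of local totals. The neighbours of Mkrn3 were nearer to 0, with log2 ratios of 0.08 at Magel2, -0.01 at Ndn and -0.02 at Peg12.

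Position along the genome went with these ratios. Gene-poor surroundings had higher ratios than gene-rich ones across the genome, and the imprinted loci showed the same order. For the 4 loci with 0 to 2 protein-coding genes in the 21 bins centred on them, Rian, Mirg, Ube3a and Snrpn, the median was 0.14, against 0.10 for other loci with as few genes. The 15 loci with 16 or more had -0.22, against -0.29 for other loci. Set against gene loci with a like number of genes around them, the median difference was -0.01, with 25 loci below and 19 above. Intervals lay wholly below that median at 2 loci and wholly above at 6. The largest differences were -0.35 at Dio3 and 0.26 at Mkrn3. The part of gene density in any single ratio was not tested.

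Genes known to be expressed from the maternal copy and genes known to be expressed from the paternal copy had close values. The median log2 ratio was -0.13 over 19 maternally expressed loci, of which 3 fell, and -0.10 over 22 paternally expressed loci, of which 3 fell. These groups come from general knowledge and were drawn up after the ratios were known. A list of other imprinted genes gave 40 loci with a median of -0.15, of which 7 fell and 0 rose, against 24.4% and 1.82% of all gene loci. Some of these loci share bins with members, such as Slc22a18 with Cdkn1c, Nap1l4 with Phlda2 and Zim2 with Zim1. The lists are therefore not independent. Among the other imprinted genes Mcts2, within H13, had 141 contacts with GW4064 and 160 with vehicle (-0.69, -1.03 to -0.36). Peg13, a noncoding RNA within Trappc9, had 194 and 185 (-0.44, -0.74 to -0.14). Of 15 loci of factors that set or keep imprints, 7 fell and 0 rose, with a median of -0.30, against the 24.4% of all gene loci that fell. These loci lie in gene-rich surroundings, with a median of 31 protein-coding genes against 12 for other gene loci, and that part was not tested. The lowest of these was Ehmt2, a histone H3 lysine 9 methyltransferase, with 225 contacts with GW4064 and 314 with vehicle (-0.99, -1.24 to -0.74), where loci with a like number of genes had a median of -0.61. Zfp57, whose product binds TGCCGC, had 216 and 127 (0.26, -0.07 to 0.58).

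Contacts within a bin were no higher at hepatocyte than at neuronal marker loci. The loci differ in length, so these values do not check the tissue label. The highest bin of each of 10 hepatocyte marker loci held a median of 1.06 times the genome median in the GW4064 library and 1.11 times in the vehicle library. For 4 neuronal marker loci the values were 1.14 and 1.23, and for the imprinted loci 1.06 and 1.14. A locus of more bins has more bins from which its highest is taken. Alb and Apoa1 span 1 bin each, while the neuronal genes Rbfox3 and Syt1 span 10 and 12. The part of locus length was not tested. Of the hepatocyte loci, 8 of 10 fell in local contacts on the scale of local totals, against 24.4% of all gene loci, with a median log2 ratio of -0.46. Of the other marker loci, 1 of 4 neuronal and 1 of 4 cholangiocyte loci fell, as did 0 of 5 Kupffer cell, 0 of 4 sinusoidal endothelial and 0 of 4 stellate cell loci. Fewer cells of a type, fewer contacts per cell and a difference between the libraries themselves cannot be told apart in whole liver.

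The Kcnq1 part of the domain from H19 to Phlda2 (chr7:142550001-143550000) held a stripe of contacts that ran to 1 side. Kcnq1, a potassium channel gene, contains Kcnq1ot1 on the opposite strand, and Cdkn1c, a cell cycle inhibitor, lies just beyond its end. The bin chr7:143200001-143250000 covers the 3′ part of Kcnq1ot1 within Kcnq1, while the Kcnq1ot1 promoter window printed above lies in the next bin. It held 306 contacts within itself in the GW4064 library and 209 in the vehicle library, the highest of all member bins and 2.01 and 1.88 times the genome median. From there contacts were raised up to Cdkn1c and not at Phlda2. With the Cdkn1c bin, 250 kb away, it made 29 contacts with GW4064 and 13 with vehicle. The expected number takes in the distance and how many local contacts each bin makes, and observed over expected, written O/E here, was 4.92 (3.29 to 7.06) with GW4064 and 3.28 (1.75 to 5.62) with vehicle. With the Phlda2 bin 50 kb further on it made 5 and 3 contacts, an O/E of 1.10 and 1.06.

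**Figure D2:**
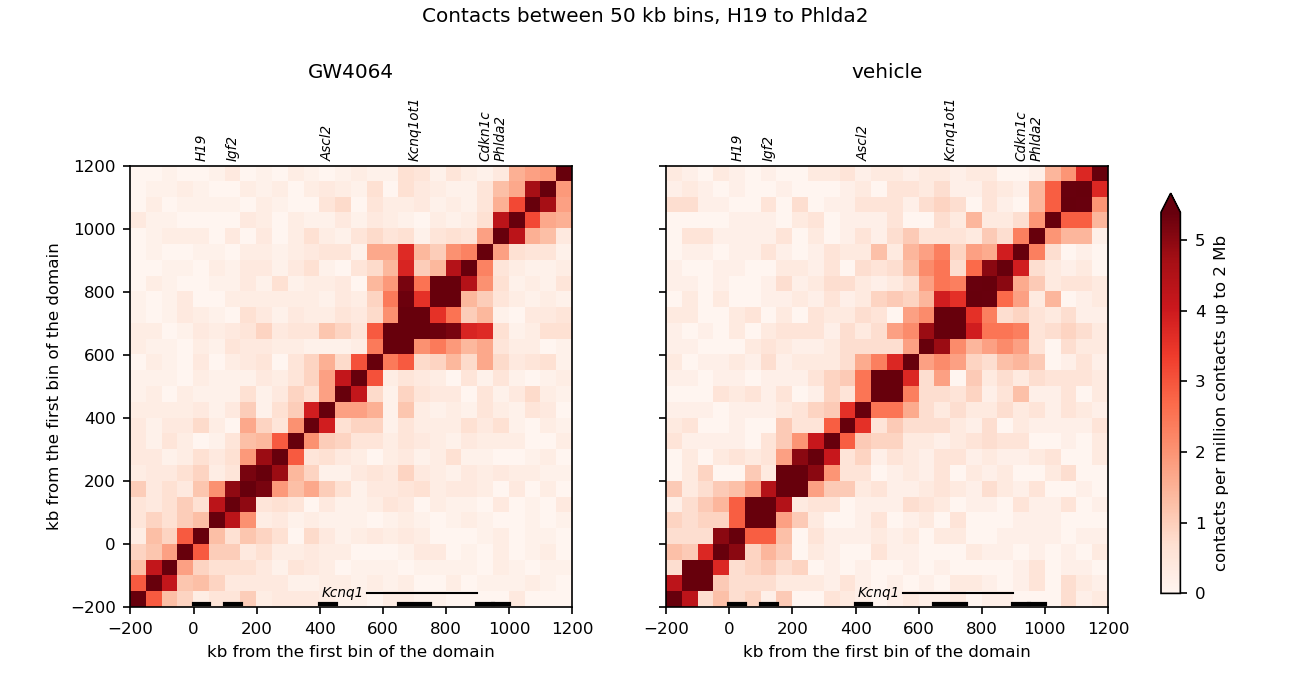
Contacts between 50 kb bins from 200 kb before H19 to 200 kb after Phlda2 in the GW4064 library (left) and the vehicle library (right), scaled to the contacts of each library up to 2 Mb, with axes in kb from the first bin of the domain and black lines for the bins of the named genes. In both maps a stripe starts at Kcnq1ot1 and ends at Cdkn1c, where the bin pair held 29 contacts with GW4064 and 13 with vehicle.

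With the 4 bins 100 to 250 kb towards Cdkn1c, the bin made 142 contacts in the GW4064 library and 63 in the vehicle library, an O/E of 3.399 (2.86 to 4.01) and 2.22 (1.71 to 2.85). With the 4 bins at the same distances towards Ascl2, it made 43 and 28, an O/E of 1.29 (0.94 to 1.74) and 1.12 (0.74 to 1.61). Bin groups of the same layout with a like number of genes, 2614 of them, had a median O/E of 1.47 in the GW4064 library and 1.22 in the vehicle library. Between their 5th and 95th percentiles they ran from 0.65 to 3.399 with GW4064 and from 0.57 to 2.69 with vehicle, so the stripe was at the upper end of that range with GW4064 and inside it with vehicle. On distance alone the O/E towards Cdkn1c was 3.22 with GW4064 and 2.10 with vehicle, and the 95th percentiles of those groups were 1.77 and 1.97. Relative to all bin pairs at the same distances, contacts towards Cdkn1c were higher with GW4064 by 0.62 on the log2 scale (0.18 to 1.07), and those towards Ascl2 by 0.06 (-0.66 to 0.80). This bin was picked with its values known, and the interval does not allow for that choice. The neighbouring bin chr7:143150001-143200000, within Kcnq1, also reached the Cdkn1c bin, with 13 contacts with GW4064 and 10 with vehicle and an O/E of 5.27 and 5.12.

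**Figure D3:**
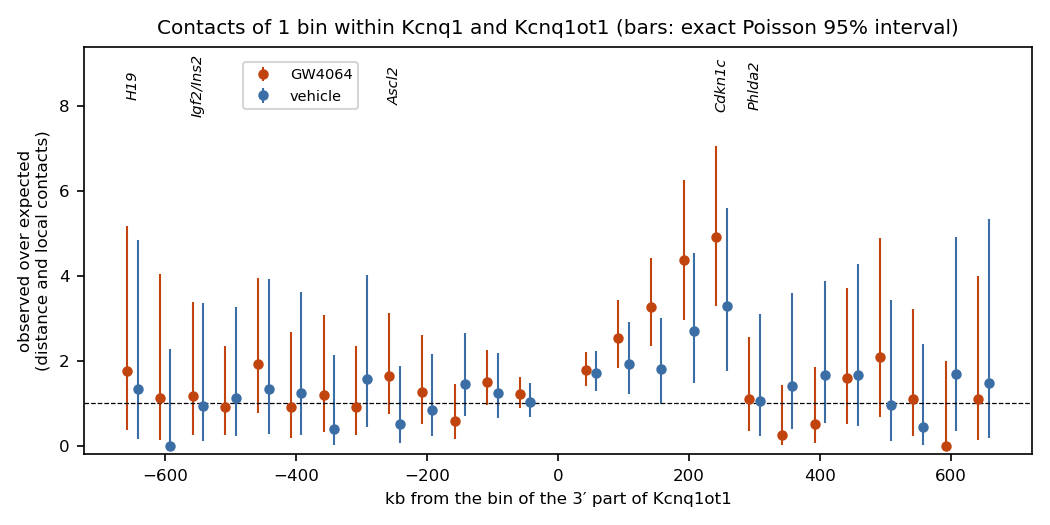
Observed over expected contacts of the bin in the 3′ part of Kcnq1ot1 with each bin up to 650 kb away, with exact Poisson 95% intervals, in the GW4064 library (orange) and the vehicle library (blue). Values are highest at Cdkn1c, at 4.92 with GW4064 and 3.28 with vehicle, and drop to 1.10 and 1.06 at Phlda2.

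Igf2 and H19, at the other end of the domain, made fewer contacts with each other in the GW4064 library than in the vehicle library. The bins of H19 and of Igf2 with Ins2 lie 100 kb apart and held 5 contacts in the GW4064 library and 16 in the vehicle library. The O/E was 1.17 (0.38 to 2.72) with GW4064 and 3.00 (1.72 to 4.87) with vehicle, and the log2 ratio -2.23 (-4.04 to -0.72). Of 1270 bin pairs of the same spacing with a like number of genes, the median O/E was 1.56 and the 95th percentile 3.74 in the GW4064 library, against 1.22 and 2.75 in the vehicle library. By this measure the pair was below the median with GW4064 and above the 95th percentile with vehicle. On distance alone it was inside the range of those pairs in both libraries, at 0.30 with GW4064 (5th percentile 0.18) and 1.41 with vehicle (95th percentile 2.21). This was the largest difference among 64 member bin pairs with at least 20 contacts over both libraries. Of those pairs 5 were at least 2-fold lower with an interval excluding no change, and 0 were higher. Among all 138952 bin pairs with as many contacts at the distances that members of a domain span, 2.17% were lower by that measure and 1.7% higher. The other pairs that were lower join Meg3 to Rian, Rian to Mirg, and Igf2r to Airn in 2 bin pairs, each with 10 to 21 contacts in either library. Another Rian to Mirg bin pair, 50 kb apart, went the other way, with 46 contacts with GW4064 and 19 with vehicle (0.81, 0.01 to 1.66). The remaining Igf2r to Airn bin pairs with as many contacts had log2 ratios from -0.51 to 0.13. H19 with Cdkn1c, 900 kb apart, held 1 contact in each library.

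Across the whole domain from H19 to Phlda2, 53.8% (51.9% to 55.7%) of its contacts up to 2 Mb into the flanks stayed inside in the GW4064 library, and 48.5% (46.4% to 50.6%) in the vehicle library. Windows of the same length with a like number of genes had medians of 49.9% and 47.4%. Contacts with the flanks numbered 1229 with GW4064 and 1169 with vehicle, a log2 ratio of -0.43 (-0.54 to -0.31) against a median of -0.37 in those windows. Between chromosomes the domain made 36.4% of its contacts in the GW4064 library and 40.9% in the vehicle library. Over each whole library, where every contact counts once, the share was 18.3% with GW4064 and 22.3% with vehicle. A lower share with GW4064 was therefore not particular to this domain. The chromosome ends less than 2 Mb beyond Phlda2, so the flank on that side is short.

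The domain from Slc22a3 to Airn (chr17:12400001-12900000) had the highest O/E inside. Slc22a2 and Slc22a3 are organic cation transporters, and Airn starts within Igf2r and runs the opposite way. Bins inside made 561 contacts with each other in the GW4064 library and 463 in the vehicle library. The O/E was 2.38 (2.19 to 2.59) with GW4064 and 1.82 (1.65 to 1.99) with vehicle, against medians of 1.54 and 1.26 in like windows and 95th percentiles of 3.02 and 2.44. Expected from distance alone it was 0.75 and 0.88, since these bins made few local contacts in all. Igf2r with Airn held 143 contacts with GW4064 and 147 with vehicle, an O/E of 2.35 and 1.95. Of the 7 pairs that meet the enrichment rule given further on, the highest with GW4064, chr17:12650001-12700000 with chr17:12800001-12850000, joins the 3′ part of Igf2r to the body of Airn, 150 kb apart, with 21 contacts with GW4064 and 13 with vehicle (O/E 5.03 and 3.22). With vehicle the highest of the 7 joined Slc22a2 to the same Airn bin, 250 kb apart, with 14 contacts with GW4064 and 10 with vehicle (O/E 4.01 and 3.69). Slc22a3 with Igf2r held 63 and 36 contacts (O/E 3.24 and 1.56). Contacts within bins of this domain fell by 0.33 on the log2 scale (-0.45 to -0.21), scaled to the totals of contacts within bins. Those with the flanks fell by 0.38 (-0.53 to -0.23), scaled to the totals up to 2 Mb. In like windows the log2 ratio of contacts with the flanks had a median of -0.23 and ran from -0.60 to 0.17 between the 5th and 95th percentiles.

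The 2 clusters of the Prader-Willi region were joined over a long distance in both libraries. Ube3a and Snrpn form 1 domain (chr7:59200001-60500000) and Ndn, Magel2, Mkrn3 and Peg12 another (chr7:62300001-62500000), 1800 kb further on. Ndn and Magel2 encode MAGE family proteins, and Peg12 is a retrogene. The 2 domains made 180 contacts with each other with GW4064 and 134 with vehicle, an O/E of 4.24 (3.64 to 4.90) and 4.88 (4.09 to 5.78). The log2 ratio was 0.04 (-0.29 to 0.38). Pairs of windows of the same sizes and spacing with a like number of genes, 2837 of them, had a median O/E of 1.06 in the GW4064 library and 1.12 in the vehicle library, and 95th percentiles of 2.62 and 2.98. Expected from distance alone the O/E was 2.98 and 2.89, and the 95th percentiles 2.68 and 2.47.

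The contacts lay with Snrpn more than with Ube3a. Snrpn made 144 contacts with the bins of Ndn to Peg12 in the GW4064 library and 112 in the vehicle library (O/E 4.88, 4.11 to 5.74, and 6.17, 5.08 to 7.43). Ube3a made 3 and 4 (O/E 0.56, 0.12 to 1.65, and 1.13, 0.31 to 2.89). The intervals of the genes do not overlap in either library. Among the partners, Mkrn3 made 45 contacts with Snrpn with GW4064 and 33 with vehicle (O/E 5.96 and 8.06), Peg12 37 and 23, Ndn 35 and 30, and Magel2 27 and 26. The intervals of these 4 partners overlap in each library. The bin highest over both libraries, chr7:60550001-60600000, lies 50 kb beyond Snrpn with no gene of the table in it, and made 27 contacts with the Ndn to Peg12 domain in each library (O/E 6.15 and 9.01). The rise was not confined to Snrpn and its edge. At -1500 kb from the first bin of Ndn, within the gap, contacts were 4.72 and 4.32 times the number expected from distance. They were 4.09 and 2.89 times at -1200 kb, but 0.60 and 0.21 times at -950 kb. On the other side of the Ndn to Peg12 domain no bin plotted exceeded 1.52 times the number expected from distance with GW4064 or 2.17 times with vehicle. Beyond Ube3a single bins reached 5.41 times with GW4064, on 8 contacts, and 4.39 times with vehicle, on 5 contacts.

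**Figure D4:**
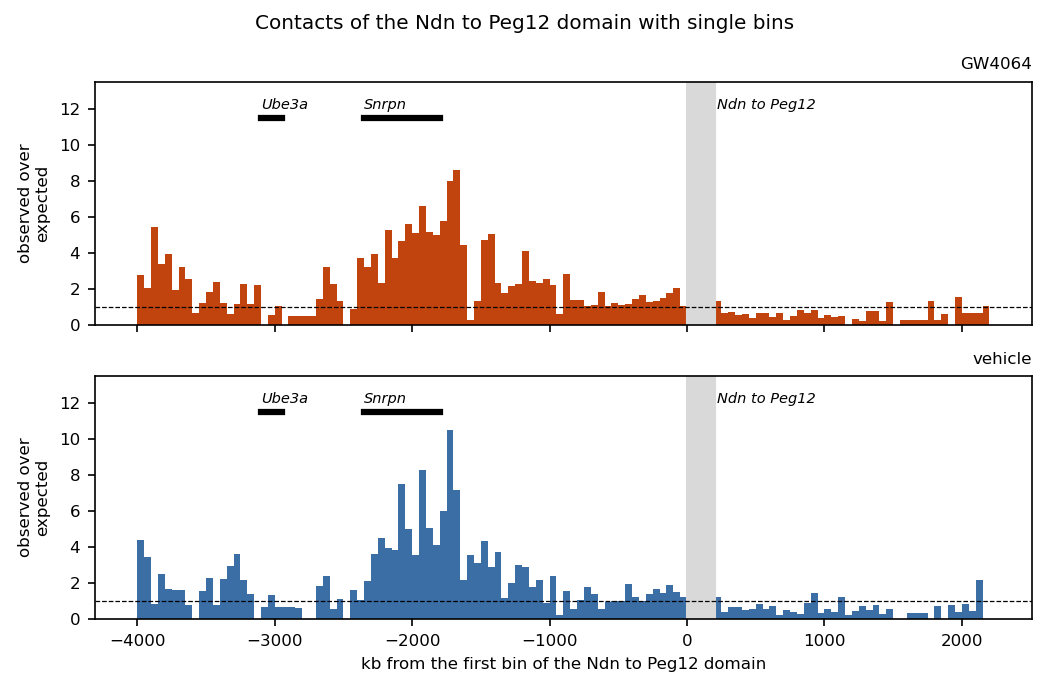
Contacts of the Ndn to Peg12 domain (grey band) with each usable 50 kb bin around it, as observed over the number expected from distance alone, in the GW4064 library (top) and the vehicle library (bottom), with black lines for Ube3a and Snrpn. Values are raised over Snrpn and just beyond it, to 7.97 with GW4064 and 10.5 with vehicle in the bin that was highest over both libraries. They are raised less evenly in the gap, with 4.72 and 4.32 at -1500 kb, and are at most 1.52 with GW4064 and 2.17 with vehicle on the far side.

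Within their own domain, Ube3a and Snrpn were apart. They made 21 contacts with GW4064 and 9 with vehicle, an O/E of 0.43 (0.27 to 0.66) and 0.34 (0.15 to 0.64). The 4691 pairs of blocks of this layout with a like number of genes had medians of 1.06 and 1.10 and 5th percentiles of 0.43 and 0.46. The region between them holds Snhg14, a noncoding host of repeated small RNA genes. In the domain 10 of the 26 bins held under 0.5 times the genome median of contacts within a bin, with 0 contacts in both libraries in the lowest. The part of these bins in the low values was not tested. The share of contacts that stayed inside the domain was 34.7% in the GW4064 library and 31.3% in the vehicle library, below the 5th percentiles of like windows, 39.1% and 38.4%. Both clusters lay in the negative compartment, the side with few genes, with mean eigenvector values of -1.40 and -1.23 for Ube3a to Snrpn and -1.85 and -1.77 for Ndn to Peg12. Contacts within bins had log2 ratios of 0.15 (0.06 to 0.23) for Ube3a to Snrpn and 0.21 (0.05 to 0.37) for Ndn to Peg12.

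The Peg3 cluster (chr7:6650001-7000000) holds zinc finger genes Peg3 and Zim1 and the deubiquitinase gene Usp29, which is read from the Peg3 promoter in the other direction. Its largest value joined the Zim1 bin to the sixth bin of the domain, in the 3′ part of Usp29, 250 kb away, with 26 contacts with GW4064 and 17 with vehicle (O/E 4.01, 2.62 to 5.88, and 3.08, 1.79 to 4.92). Like pairs had 95th percentiles of 3.51 with GW4064 and 2.84 with vehicle. The Peg3 bin, which Usp29 also overlaps, reached the same bin with 22 and 16 contacts (O/E 2.75 and 2.26). Local contacts of Usp29 numbered 1144 and 878, a log2 ratio of -0.13 (-0.26 to 0.00), against -0.30 in loci with as many genes around them.

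On chromosome 6, Sgce, a sarcoglycan gene, and Peg10, a domesticated retrotransposon, share a start region, and Ppp1r9a, which encodes the actin-binding neurabin, lies beyond them. Sgce with Ppp1r9a held 145 contacts with GW4064 and 84 with vehicle (O/E 1.33, 1.12 to 1.57, and 1.31, 1.05 to 1.63). The domain had the opposite balance to the others of 10 bins or more. Expected from distance alone, contacts inside were 1.40 and 1.23 times expected, and with local contacts taken into account 0.82 and 0.81 times. The other 5 domains of that size lay above the median of like windows in both libraries once local contacts were taken into account. The flank bin with the highest value outside this domain, chr6:5350001-5400000, holds Asb4, also imprinted, and made 128 contacts with the domain in the GW4064 library and 115 in the vehicle library, 2.52 and 3.26 times the number expected from distance. For the whole of Asb4 the O/E with local contacts taken into account was 1.14 (0.99 to 1.32) and 1.22 (1.04 to 1.42).

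Dlk1 and Dio3 bound the cluster on chromosome 12 (chr12:109450001-110300000), with the noncoding RNAs Meg3, Rian and Mirg, hosts of microRNAs, between them. Contacts inside numbered 1211 with GW4064 and 977 with vehicle (O/E 1.54 and 1.34, against medians of 1.08 and 1.06 in like windows). Both values were inside the range of like windows, whose 95th percentiles were 1.86 and 1.77. Expected from distance alone the O/E was 0.76 and 0.88, below medians of 1.00 and 0.99, so the direction depends on the measure. Dlk1, a noncanonical Notch ligand that is a fetal gene in liver, had 155 local contacts with GW4064 and 124 with vehicle (log2 ratio -0.19, -0.54 to 0.17). Dlk1 with Dio3, 800 kb apart, held 2 contacts with GW4064 and 0 with vehicle, and Meg3 with Dio3 held 7 and 5 (O/E 4.87, 1.96 to 10.04, and 3.04, 0.99 to 7.09). No pair of member bins in this domain met the rule for enrichment used below.

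Plagl1, a zinc finger growth regulator, had its highest flank value with Phactr2. The bin of Phactr2 300 kb from the edge of Plagl1 made 55 contacts with it in the GW4064 library and 30 in the vehicle library. The whole genes held 213 contacts with GW4064 and 117 with vehicle, an O/E of 1.77 (1.54 to 2.02) and 1.52 (1.254 to 1.82), with a log2 ratio of 0.32 (-0.02 to 0.65). Like blocks had medians of 1.18 and 1.09 and 95th percentiles of 2.40 and 2.14, so the pair was inside their range by this measure. On distance alone it was 2.16 with GW4064 and 1.74 with vehicle, where the 95th percentiles were 1.83 and 1.98. The 2 bins of Gnas, which encodes the stimulatory G protein subunit and has several start sites, made few contacts with each other. They held 7 contacts with GW4064 and 13 with vehicle, 0.16 (0.06 to 0.33) and 0.41 (0.22 to 0.70) times the number expected from distance, where like pairs had 5th percentiles of 0.34 and 0.38. With local contacts taken into account the values were 0.36 (0.14 to 0.74) and 0.66 (0.35 to 1.12), with 5th percentiles of 0.66 and 0.61, so the pair was below the range of like pairs with GW4064 and within it with vehicle. Only 1.78% of the contacts of Gnas up to 2 Mb stayed inside with GW4064 and 3.95% with vehicle, against medians of 7.81% and 7.84% in like windows, and the lowest insulation near the gene was in its first bin in both libraries. Trappc9, a trafficking complex gene, with Kcnk9, a potassium channel, held 77 and 56 contacts (O/E 1.55 and 1.40). Mest, a hydrolase-like gene, with Copg2, a coat protein gene, held 38 and 27 (O/E 1.51 and 1.29), and Commd1 with Zrsr1, a retrogene in its intron, 75 and 63 (O/E 0.61 and 0.65). Local contacts of Grb10, an adaptor that restrains insulin signalling, numbered 790 with GW4064 and 583 with vehicle, a log2 ratio of -0.07 (-0.23 to 0.09). Those of Impact, Rasgrf1 and Sfmbt2, single-gene domains, had log2 ratios of -0.20, -0.21 and -0.07, and those of Herc3 and of Nap1l5, which lies in an intron of Herc3, -0.09 and -0.26.

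**Figure D5:**
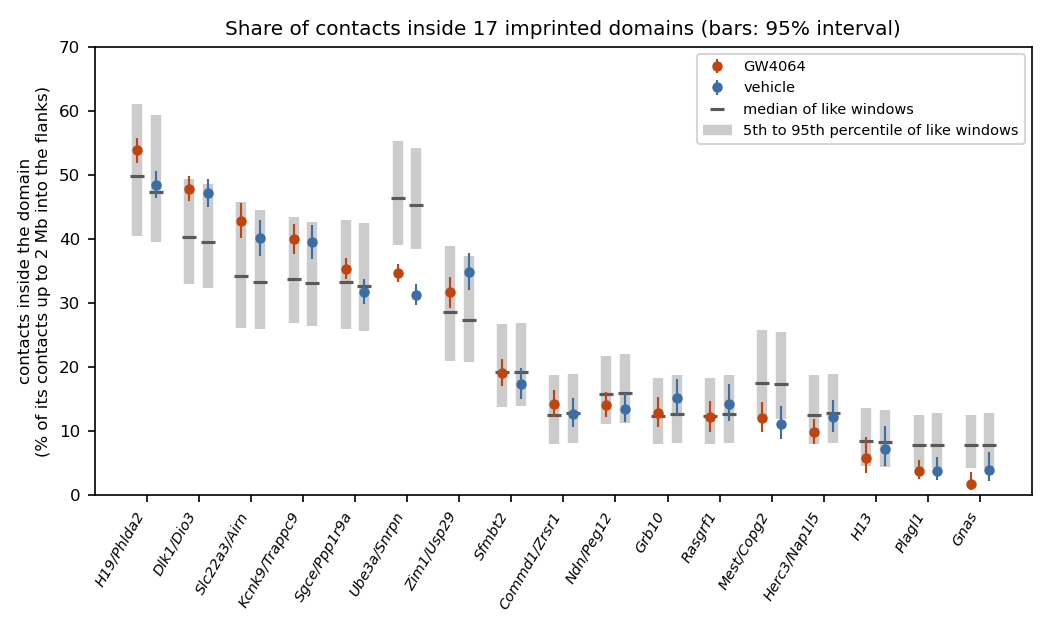
Share of each domain's contacts up to 2 Mb into the flanks that stayed inside it, for the 17 domains of 2 bins or more, with exact 95% intervals, GW4064 (orange, left of each pair) and vehicle (blue, right). Grey bars run from the 5th to the 95th percentile of windows of the same length with a like number of genes, and Ube3a/Snrpn, Plagl1 and Gnas lie below them in both libraries.

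For the 17 domains of 2 bins or more, the median inside over expected from distance was 0.76 with GW4064 and 0.88 with vehicle, against 0.92 and 0.95 in like windows. With local contacts taken into account it was 1.30 and 1.19, against 1.22 and 1.16 in like windows. By either measure 0 of the 17 were above the 95th percentile of their windows in either library. The share inside was below the 5th percentile in 3 domains with GW4064 and 4 with vehicle, and above the 95th in 0. Contacts with the flanks had a median log2 ratio of -0.13 over the 19 domains, against -0.03 in like windows, and 0 of 19 lay outside the range from the 5th to the 95th percentile of like windows.

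Pairs of bins that hold different members of a domain were called enriched when each library held 10 contacts or more and an O/E of 1.5 or more. Some listed genes overlap, so both bins of a pair can lie within 1 gene. Of 204 such pairs 20 were enriched, or 9.80%, against 4.63% of all bin pairs with the same mix of distances and 1.84% of all 1258787 pairs over the same span of distances. The 20 pairs lay in 4 of 11 domains with more than 1 locus. The H19 to Phlda2 domain held 8 of its 56 pairs, all between Kcnq1, Kcnq1ot1 and Cdkn1c, the Slc22a3 to Airn domain 7 of 40, the Peg3 cluster 3 of 11 and the Sgce cluster 2 of 21. Pairs in a domain share bins and are not independent. All enriched pairs of Kcnq1 with Kcnq1ot1 lie within the bins of Kcnq1, and those of Peg3 with Usp29 within the bins of Usp29. Most enriched pairs of Igf2r with Airn lie within Igf2r or within Airn. The share enriched is therefore not a measure of contacts between separate genes alone. The comparison pairs were matched on distance and not on number of genes or on lying within 1 gene, and neither part was tested. With GW4064 the median O/E in like windows was 1.54 for Slc22a3 to Airn and 1.51 for H19 to Phlda2. These medians were below 1.5 with vehicle. On distance alone the enriched Slc22a3 to Airn pairs ran from 0.69 to 1.95 with GW4064 and from 0.95 to 2.04 with vehicle. Expected from distance alone, 14 pairs met the rule. The shares of all bin pairs given above do not apply to that count, and none is given for it. The ratio of GW4064 to vehicle had an interval including 0 in 18 of the 20, above 0 in 1 and below 0 in 1.

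Domains on different chromosomes were not seen to meet more often than expected at this depth. The 155 pairs of domains held 32 contacts with GW4064 and 29 with vehicle, against 30.02 and 34.3 expected, an O/E of 1.07 (0.73 to 1.51) and 0.84 (0.57 to 1.21). Over both libraries it was 0.95 (0.73 to 1.22), and 1.23 (0.94 to 1.575) when expected from all contacts of both domains in place of those between chromosomes. No pair was above 1 by its interval in both libraries. By the mean compartment value of a domain, 9 of the 19 lay on the positive side and 10 on the negative side in both libraries, and 0 changed side. Single 250 kb bins did differ, since Slc22a3 to Airn had 1 of 3 positive bins with GW4064 and 3 of 3 with vehicle, and Dlk1 to Dio3 had 2 of 5 and 3 of 5. The highest mean was that of Mest with Copg2 in the GW4064 library, at 1.12, and that of Blcap with Nnat in the vehicle library, at 1.28.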

How the data were processed

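Per the labels, the Arima-HiC+ kit was used for ligation, and Foxa2 antiserum for precipitation, of liver chromatin. Per the submitters' processing notes, HiC-Pro and Bowtie2 2.2.9 were used on mm10. Read filters, duplicate handling and any pooling of animals are not stated in those sources. The authors deposited matrices of raw counts of contacts per pair of 50 kb bins, without normalization, and tables that number the bins.

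Chromosomes 1 to 19 and X were used. A locus is every bin that overlaps the gene span, since the gene table gives no strand. Loci needed 50 local contacts over both libraries, and bins 100 contacts. Ratios were scaled to the totals of the contact class, with exact conditional binomial intervals. Expected contacts came from the mean per bin pair at each distance, alone or multiplied by the local contacts of both bins, with exact Poisson intervals. Shares have Clopper-Pearson intervals. Contacts with flanks reach up to 2 Mb beyond a domain. Like loci and windows had a number of protein-coding genes within 10% (at least 1 gene), counted in 21 bins around a locus or within 500 kb of a window, with 90% of bins usable. Compartments are the first eigenvector at 250 kb, and insulation used 500 kb.

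All 46 listed genes are named, with at most 1 flank gene per domain and the other imprinted genes and imprint factors. The members and lists were chosen with earlier results of these data known. The Kcnq1ot1 bin, the Prader-Willi blocks, the paired blocks and the parental lists were chosen after values were seen. Ratios and expected contacts were tested on simulated data. Work was done with scipy 1.17.1, numpy 2.4.6 and pandas 2.3.3 in Python 3.11.15, and figures with matplotlib 3.10.9.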

Additional observations from a re-analysis of the deposited data

How the results depend on the processing

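Scaling set the direction of the imprinted loci as a group. The median log2 ratio of their local contacts, -0.12, was 0.032 with equal totals of all contacts, -0.0068 set to the median gene locus, -0.16 with each domain counted once and -0.090 without the H19 to Phlda2 domain, the last 2 chosen after seeing the data. The 6 loci that fell were 1 under either other scaling, 0 at 1.5-fold and 12 by the interval alone, and the 0 that rose were 3 under either other scaling, 2 for contacts within a bin and 2 by the interval alone. Of all gene loci, 12.5% fell and 9.99% rose with equal totals of all contacts, 15% and 6.98% set to the median locus, and 33.1% and 6.1% by the interval alone. At 1.5-fold 7.5% fell, and within a bin 2.18% rose. The median for flanks, -0.13, was 0.011 with equal totals of all contacts. The median O/E inside over both libraries, 0.81, was 0.89 with the decay of the same chromosome, 1.245 with local contacts taken into account, 0.96 with genes grouped within 500 kb and, added after seeing the data, 0.78 for domains of at least 10 bins. The 20 enriched pairs were 12 at 2 times and 40 at 5 contacts. No share of all bin pairs is given for those rules, so these counts have no background. The O/E between chromosomes, 0.95, was 1.23 when expected from all contacts. The other 22 of 42 alternatives stayed within 1.5 times for counts and within the counting interval for values. With 1 library per treatment no library could be left out. No paired analysis was possible because each treatment has 1 library. Single bin pairs are limited by depth, such as H19 with Igf2 at 21 contacts in all.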
